A study of Mus musculus with 11 samples.

Results

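Il-10, tgfb1 and Il1ra, genes of cytokines that restrain inflammation, are 3 of the 93 genes on a custom nCounter probe set that was read in the spleens of 11 female mice. They were taken by name from the deposited values and followed through all 5 groups of mice. The groups were 3 WT/Fas lpr mice and 4 cGAS KO/Fas lpr mice, which share the MRL strain and the lpr mutation of the death receptor Fas and are prone to lupus, 1 B6 WT mouse, 1 B6 cGAS KO mouse, and 2 WT mice of the B6 strain that had received DMXAA, a small-molecule agonist of STING in mice. cGAS, a sensor of cytosolic DNA, was inactivated among cGAS KO/Fas lpr mice by CRISPR deletion of an exon directly on the MRL/Fas lpr background. The paper derives its B6 cGAS KO mice from cryopreserved embryos of a mutagenesis programme, so the knockouts of the 2 backgrounds were made in different ways. The labels of the MRL mice write neither Fas lpr nor, for the cGAS mice, KO, and they give neither the age of the mice nor the dose and time of the injection. cGAS is not on the panel, so the genotypes could not be checked by its expression.

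IL-10 is secreted by T cells, B cells and myeloid cells, signals through STAT3 and limits the production of inflammatory cytokines by macrophages and dendritic cells. TGF-β1 is secreted in a latent form by many cell types, signals through SMAD proteins, restrains T cell activation and takes part in the formation of regulatory T cells. IL-1Ra, the IL-1 receptor antagonist, occupies the receptor of IL-1α and IL-1β without passing on a signal. The panel name Il1ra was paired with the gene Il1rn through a synonym in the RefSeq gene table. This pairing rests on the name, since the probe's sequence was not analysed here. IL1RA has also been used for the IL-1 receptor, and what is written below of IL-1Ra holds only if the probe reads Il1rn.

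The authors normalized the signal to housekeeping genes with a single factor per mouse, and the count behind each value was read back from it. The total count over the 93 genes was 28406 to 58404 in the 7 Fas lpr mice, 647148 and 600677 in the DMXAA-injected mice, 12386 for the B6 cGAS KO mouse and 3612 in the WT mouse of B6. The median count was 106 to 207, 681 and 605, 36, and 21 in the same order. Because the counts of a mouse differ so much in total, each gene was set against the panel median of its own mouse, and this quantity is called the relative level. The panel is made of immune genes and its median is not a neutral reference, so ratios between the 3 genes, in which any scale shared by a mouse cancels, are given as well. Probes differ in how well they capture RNA, so levels of different genes are not ranked against each other, and ratios are compared between mice only. The labels name the tissue as spleen, and the study's text speaks of total splenocytes. In such mixed cells, fewer cells of a type and less RNA per cell cannot be told apart. Marker lists of B cells, T cells, regulatory T cells, macrophages and monocytes, plasmacytoid dendritic cells, neutrophils and red cells had 0 members on the panel, so that the labelled tissue could not be checked.

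tgfb1 was narrow in its relative level among the Fas lpr mice. It was 14.1, 14.6 and 14.1 times the panel median among WT/Fas lpr mice, from counts of 1490, 2533 and 2924. Among cGAS KO/Fas lpr mice it was 15.4, 13.3, 13.9 and 12.7 times the median, from counts of 2344, 2685, 2111 and 2117. The range of the first group lies inside that of the second. The SD of the log2 relative level over these 7 mice was 0.090, compared to a median SD of 0.23 over the 93 genes, and it ranked 88 of 93 from the largest. The chi-square against counting noise was 9.06 times its degrees of freedom for tgfb1, 2.05 for Il1ra and 3.10 for Il-10. Whether each excess passes a threshold was not tested. These values grow with the counts and do not rank the genes. The B6 WT mouse had 67 counts, 3.19 times its panel median, and the B6 cGAS KO mouse had 295 counts, 8.19 times its median. The DMXAA-injected mice had 3694 and 3516 counts, 5.42 and 5.81 times the median. By relative level, the Fas lpr groups were the highest, then the B6 cGAS KO mouse, the DMXAA-injected mice and the B6 WT mouse, and within this order only the 2 Fas lpr groups overlapped.

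Il1ra lay near the panel median in the Fas lpr mice and above it after DMXAA. Its relative level was 0.877, 0.730 and 0.884 among WT/Fas lpr mice (93, 127 and 183 counts). It was 0.993, 0.767, 0.704 and 0.874 among cGAS KO/Fas lpr mice (151, 155, 107 and 146 counts). These groups overlapped, and their means of 0.830 ± 0.087 (SD, n = 3) and 0.835 ± 0.13 (SD, n = 4) differed by far less than the spread. The relative level was 0.667 in the WT mouse of B6 and 0.444 for the B6 cGAS KO mouse, from only 14 and 16 counts, whose exact 95% Poisson intervals of 7.65 to 23.5 and 9.15 to 26.0 counts overlap. In the DMXAA-injected mice Il1ra reached 1431 and 1256 counts, 2.10 and 2.08 times the panel median, above all other mice. Such intervals cover counting error only.

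Il-10 had 7 to 37 counts in all mice, so that counting error weighs on each of its levels. The WT/Fas lpr mice had 7, 37 and 26 counts, or 0.0660, 0.213 and 0.126 times the panel median. The cGAS KO/Fas lpr mice had 35, 26, 18 and 29 counts, or 0.230, 0.129, 0.118 and 0.174 times the median. The SD of its log2 relative level over these 7 mice was 0.57, the fifth largest of the panel, and low counts widen this SD. The lowest mouse was the first WT/Fas lpr mouse, with the smallest total count of the 7. The B6 WT mouse had 9 counts and the B6 cGAS KO mouse had 8, which is 0.429 and 0.222 times their low panel medians. The DMXAA-injected mice had 11 and 7 counts, 0.0162 and 0.0116 times the median. No negative control probe was analysed here, and it is therefore unknown how many of the 7 to 11 counts in the B6 mice, injected or not, are background.

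**Figure D1:**
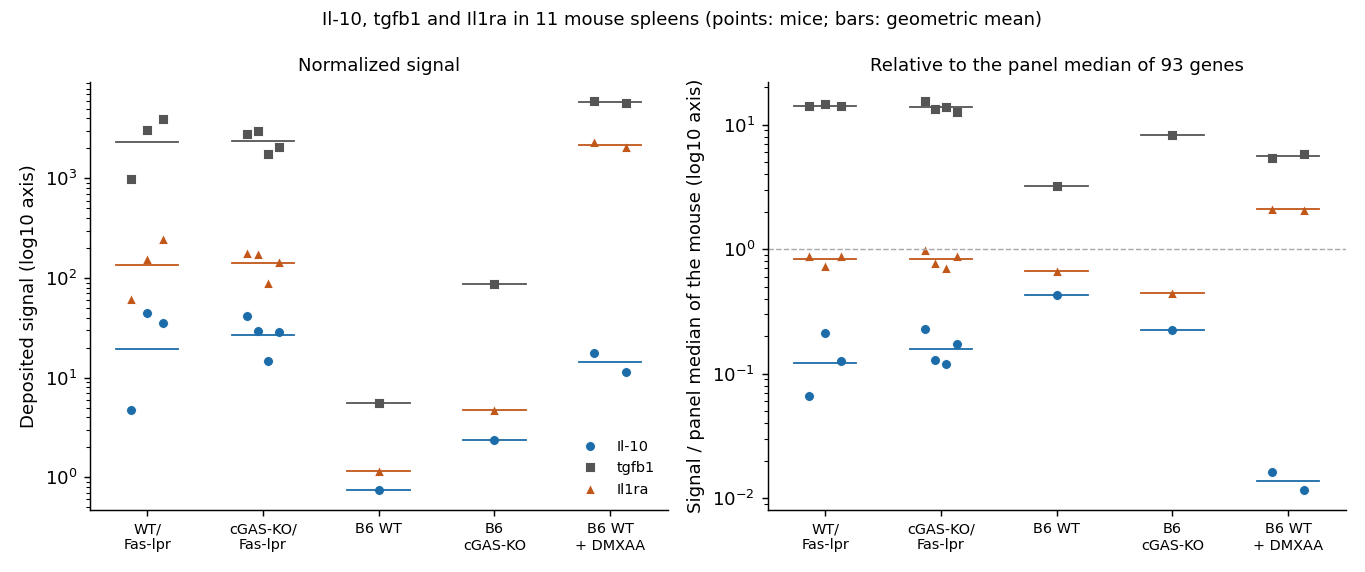
Levels of Il-10, tgfb1 and Il1ra in each of the 11 spleens (points) with the geometric mean of the group (bars), as deposited signal (left) and relative to the median of the 93 genes in the same mouse (right), both on log10 axes. On the right, the Fas lpr groups overlap for each gene, and the 2 DMXAA-injected mice lie above the others for Il1ra and below them for Il-10. On the left, Il-10 of the injected mice lies above that of the uninjected B6 mice.

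The comparison of cGAS KO/Fas lpr with WT/Fas lpr mice asked whether loss of the DNA sensor cGAS changes expression in lupus-prone spleens. None of the 3 genes differed between these groups by more than the spread between mice, and the signs of the small differences for tgfb1 and Il1ra depended on the scale. The log2 difference in relative level was 0.34 for Il-10 (95% interval -0.48 to 1.16), 0.0005 for Il1ra (-0.35 to 0.36) and -0.05 for tgfb1 (-0.32 to 0.23), each with an adjusted p of 0.997 by limma with Benjamini-Hochberg adjustment over the 93 genes. limma called 0 of the 3 genes and 0 of all 93 (0%) at a threshold of 0.05, and 1 gene of the panel had an unadjusted p under 0.05. limma's voom and the exact Mann-Whitney test, which cannot go below 0.0571 with 3 against 4 mice, also called 0 genes. The Il-10 difference moved with single mice. It was -0.05 without the first WT/Fas lpr mouse, 0.72 without the second, and 0.16 without the first cGAS KO/Fas lpr mouse.

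In the B6 mice, of which there was 1 per genotype, the sizes of the differences of the 3 genes depended on the scale. So did the signs for Il1ra and Il-10, whereas tgfb1 was higher in the B6 cGAS KO mouse on each scale given here. The signed order of the 3 differences is the same on each scale by construction. With 1 mouse per genotype, a change of scale shifts all 3 log2 differences alike. The count of tgfb1 was 67 (exact 95% Poisson interval 51.9 to 85.1) in the WT mouse of B6 and 295 (262 to 331) for the B6 cGAS KO mouse. Its log2 relative level was 1.36 higher in the latter. By the same measure, cGAS KO minus WT, the difference was -0.58 for Il1ra and -0.95 for Il-10, from nearly equal counts. With 1 mouse each these differences have no replicate check, and on the deposited signal they were 3.99, 2.04 and 1.68 for tgfb1, Il1ra and Il-10. As a share of the total count, tgfb1 moved least, from 1.85% in WT to 2.38%, whereas Il1ra was 0.388% and 0.129% and Il-10 0.249% and 0.0646%. The intervals above are of counts from totals of 3612 and 12386. The cGAS difference of the Fas lpr mice minus that of the B6 mice was -1.42 log2 units for tgfb1, 1.24 for Il-10 and 0.57 for Il1ra, and on the deposited signal the signs of Il-10 (-0.56) and Il1ra (-1.34) reversed. These are given as values and not as calls, since the B6 side holds no spread between mice. The knockouts of the 2 backgrounds were also made in different ways. The median over all 93 genes was -0.25, compared to -2.01 on the deposited signal and 0.76 as a share of the total count, and in the latter the value for tgfb1 was -0.40. limma's voom gave -0.84 for tgfb1, and the deposited signal gave -3.73. If the lone B6 mice are assumed to vary like mice of the other groups, limma calls 5 genes larger (5.38%) and 26 smaller (28.0%), tgfb1 with the latter, and it calls tgfb1 neither as a share of the total count nor with voom. The balance of these calls turned over with the scale, to 39 larger and 8 smaller as a share of the total count and 0 larger and 29 smaller on the deposited signal, so nothing here rests on these calls.

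Compared to uninjected B6 mice, the Fas lpr mice had higher relative levels of tgfb1 and Il1ra and a lower one of Il-10. In this fit each B6 genotype is 1 mouse, whose spread is taken from the replicated groups. The difference between the 2 B6 mice, 1.36 log2 units for tgfb1, is not in the error of the fit. limma called all 3 genes under this assumption. tgfb1 was 2.80-fold higher (log2 difference 1.49), and each of the 7 Fas lpr mice was above both B6 mice. Il1ra was 1.48-fold higher (log2 difference 0.57), again in 7 of 7 mice, and 45 of the 93 genes had no overlap in this comparison. For Il1ra the exact 95% Poisson interval of the B6 WT mouse, from 14 counts, spans log2 relative levels of -1.46 to 0.16. The Fas lpr mice, at -0.506 to -0.0095, all lie inside it, so their order against this mouse is within counting error. Il-10 was lower by 1.20 on the log2 scale, while its groups overlapped. The B6 mice had 9 and 8 counts of Il-10, not shown to lie above background. Neither the size nor the direction of its difference is therefore established. With voom neither Il-10 (-1.03, adjusted p = 0.077) nor Il1ra (0.69, adjusted p = 0.096) was called, and with a pseudocount of 10 Il1ra was not (0.34, limma adjusted p = 0.055). Over the panel 26 genes were higher (28.0%) and 38 lower (40.9%), so that both directions were common. On the deposited signal all 93 genes were higher in the Fas lpr mice, with a median log2 difference of 4.84 compared to -0.07 for the relative level and -0.32 for the share of the total count. On that scale Il-10 was 3.33 log2 units higher, so that its direction flips. As a share of the total count 21 genes were higher and 44 lower, and Il1ra did not pass the threshold (0.32, limma adjusted p = 0.11). The call for tgfb1 was made with either B6 mouse left out, with differences of 0.80 without the B6 WT mouse and 2.17 without the B6 cGAS KO mouse. The call for Il1ra was lost without the B6 cGAS KO mouse (0.28) and that for Il-10 without the B6 WT mouse (-0.75). Strain, Fas genotype and the low counts of the 2 B6 spleens cannot be told apart here.

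DMXAA-injected mice were next set against the uninjected control, which is also part of the B6 group above. In DMXAA-injected B6 WT mice, Il1ra and tgfb1 had higher relative levels than in the uninjected B6 WT mouse and Il-10 had a lower one. The differences were 1.61 log2 units for Il1ra, 0.86 for tgfb1 and -4.90 for Il-10. They hold no spread of the control, which is 1 mouse with 3612 counts in all. limma's calls against this mouse, here and below, assume that it varies like the replicated groups. Both injected mice lay on the same side of the control for 91 of the 93 genes, these 3 among them. The count of Il-10 itself was 9 in the uninjected mouse and 11 and 7 in the injected ones, and its lower level is one against panel medians of 21 counts in the former and 681 and 605 in the latter. None of these Il-10 counts was shown to lie above background, so neither the size nor the direction of its difference is established. Over the panel 35 genes were higher (37.6%) and 47 lower (50.5%). On the deposited signal all 93 genes were higher, with a median log2 difference of 7.87 compared to -0.93 for the relative level, and Il-10 was 3.13 log2 units higher. As a share of the total count 11 genes were higher and 74 lower, with a median of -3.49, and Il1ra and tgfb1 were lower (-0.95 and -1.70). In the DMXAA-injected mice viperin alone held 28.0% and 29.1% of the total count, compared to 3.16% in the WT mouse of B6. With both uninjected B6 mice as control the difference for tgfb1 was 0.17 (limma adjusted p = 0.28).

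DMXAA-injected and Fas lpr mice, which both had replicates, differed in each of the 3 genes without overlap of the groups, as in 82 of the 93 genes. The relative level of Il1ra was 2.52-fold higher after DMXAA (log2 difference 1.33, SE 0.15, limma adjusted p = 1.3e-05). That of tgfb1 fell by 1.31 (SE 0.12, limma adjusted p = 1.9e-06) and that of Il-10 fell by 3.24 (SE 0.37, limma adjusted p = 1.2e-05). The injected mice had 11 and 7 counts of Il-10, not shown to lie above background, so the size of its difference is not established. With voom, which kept all 3 calls, the differences were 2.04, -0.62 and -2.62. Over the panel 31 genes were higher (33.3%) and 52 lower (55.9%), with a median log2 difference of -0.81, compared to 40 and 43 with voom. On the deposited signal 54 were higher and 5 lower (median 1.84), tgfb1 was higher (1.33, limma adjusted p = 0.034), and Il-10 did not pass the threshold (-0.67, limma adjusted p = 0.30). As a share of the total count 15 were higher and 69 lower (median -2.60), and Il1ra was lower (-0.47, limma adjusted p = 0.021). Strain, Fas genotype and injection cannot be told apart in this comparison.

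The ratios of counts within a mouse do not depend on the scale. There were 6.24, 5.01 and 6.26 counts of Il1ra per 100 of tgfb1 among WT/Fas lpr mice and 6.44, 5.77, 5.07 and 6.90 among cGAS KO/Fas lpr mice. The B6 cGAS KO mouse had 5.42, the B6 WT mouse had 20.9 with a wide exact 95% binomial interval of 10.8 to 37.5, and the DMXAA-injected mice had 38.7 and 35.7. The DMXAA-injected mice thus had the highest Il1ra to tgfb1 ratio of the 11, 6.28-fold above that of the Fas lpr mice and 1.78-fold above that of the B6 WT mouse, whose interval reaches the injected mice, so that their order is within counting error. The exact two-sided permutation test, whose p is the smaller one-sided p doubled, gave p = 0.0556, the smallest value this rule allows with 36 divisions of 9 mice. Between Fas lpr and uninjected B6 mice this ratio overlapped (log2 difference -0.85, exact permutation p = 0.33). It was 0.13 without the B6 WT mouse, so that its sign turned, -1.82 without the B6 cGAS KO mouse, and -1.36 with a pseudocount of 10 on both counts, where the groups gave the smallest possible p of 0.0556.

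The share of Il-10 against the other 2 genes was lowest after DMXAA. There were 0.470, 1.46 and 0.889 counts of Il-10 per 100 of tgfb1 among WT/Fas lpr mice and 1.49, 0.968, 0.853 and 1.37 among cGAS KO/Fas lpr mice. The ratio was 13.4 in the WT mouse of B6, 2.71 for the B6 cGAS KO mouse, compared to 0.298 and 0.199 after DMXAA. Set against Il1ra, Il-10 had 7.53, 29.1 and 14.2 counts per 100 among WT/Fas lpr mice and 23.2, 16.8, 16.8 and 19.9 among cGAS KO/Fas lpr mice. The B6 WT mouse had 64.3 and the B6 cGAS KO mouse 50.0, compared to 0.769 and 0.557 after DMXAA. Il-10 was thus lower against both genes in DMXAA-injected than in Fas lpr mice, with log2 differences of -2.04 against tgfb1 and -4.70 against Il1ra, or -1.51 and -4.06 with a pseudocount of 10 on both counts. With 11 and 7 counts of Il-10 in the injected mice, not shown to lie above background, the sizes of these differences are not established. It was also lower in Fas lpr than in uninjected B6 mice (-2.59 and -1.74), though with 1 B6 mouse left out the first of these ran from -3.74 to -1.43 and the second from -1.92 to -1.56. Background counts would not cancel in a ratio, and with 9 and 8 counts of Il-10 in the B6 mice neither the size nor the direction of this difference is established. The groups did not overlap in any of these 4 comparisons, and each had an exact permutation p of 0.0556, the smallest that doubling allows, so that no ratio could pass 0.05 under this rule. For Il-10 per 100 of tgfb1, the exact 95% binomial interval of the first WT/Fas lpr mouse was 0.189 to 0.970. It overlaps those of the injected mice (0.149 to 0.533 and 0.080 to 0.411), so the order of these mice is within counting error. Between the 2 Fas lpr genotypes the 3 log2 ratios differed by 0.05 to 0.43 with overlapping groups (exact permutation p = 0.46 to 0.69, where 0.0571 is the smallest possible).

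**Figure D2:**
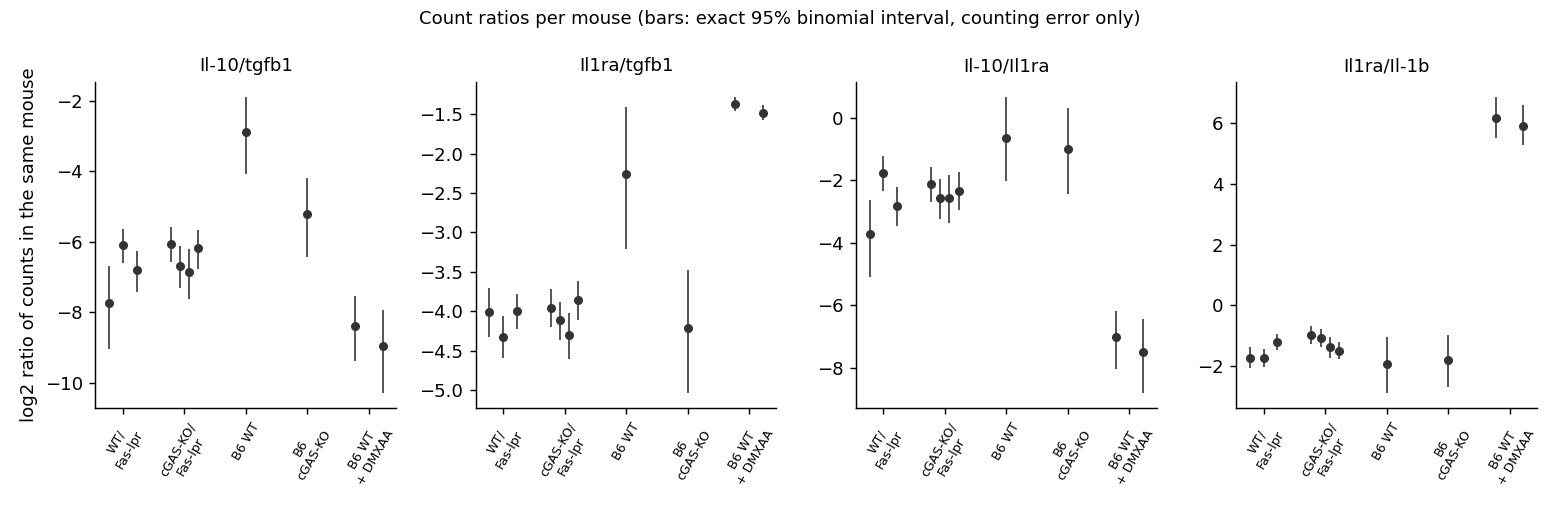
Log2 ratios of counts in the same mouse for Il-10/tgfb1, Il1ra/tgfb1, Il-10/Il1ra and Il1ra/Il-1b (points: mice, lines: exact 95% binomial interval for counting error only). The DMXAA-injected mice lie lowest for both Il-10 ratios and highest for both others, and the Fas lpr groups overlap in all 4.

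IL-1Ra competes with IL-1α and IL-1β, and the ratio of its counts to those of both ligands was far higher after DMXAA than in any other mouse. Il-1b had 20 and 21 counts in the DMXAA-injected mice, 53 in the WT mouse of B6, 56 for the B6 cGAS KO mouse and 280 to 423 in the Fas lpr mice. The ratio of Il1ra to Il-1b, chosen after the values were seen and not tested, was 71.5 and 59.8 in the DMXAA-injected mice. It was 0.264 in the WT mouse of B6, 0.286 for the B6 cGAS KO mouse, 0.300 to 0.434 among WT/Fas lpr mice and 0.354 to 0.510 among cGAS KO/Fas lpr mice. The 9 mice without DMXAA thus lay between 0.264 and 0.510 in this ratio. The ratio of Il1ra to Il-1a was 47.7 and 40.5 after DMXAA, 0.875 and 1.33 for the uninjected WT and cGAS KO B6 mice, and 2.31 to 3.60 in the Fas lpr mice.

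Of the IL-1 family list, 6 genes other than Il1ra are on the panel. In DMXAA-injected against uninjected B6 WT mice, 1 was higher and 5 lower by limma, with a median log2 difference of -2.81 compared to -0.93 over all 93 genes, of which 37.6% were higher and 50.5% lower. The gene that rose was casp1 (1.46), whose protease processes IL-1β and IL-18. Il-1b (-6.20), Il-1a (-3.98), Il-18 (-3.82) and Il-33 (-1.79), the genes of the family's cytokines, and nlrp3 (-1.71), the gene of an inflammasome sensor, were lower. Between Fas lpr and uninjected B6 mice, casp1 was higher (0.74), Il-1a (-0.81), nlrp3 (-0.99) and Il-33 (-1.40) were lower, and Il-1b (0.16) and Il-18 (0.03) did not pass the threshold. Over the panel 28.0% were higher and 40.9% lower in this comparison. Il-33 had at most 7 counts in each of these mice, and its call after DMXAA rests on 1 count in the uninjected mouse, compared to 14 and 18, and on the pseudocount added to it. Between DMXAA-injected and Fas lpr mice, 0 were higher, 4 were lower and 2 did not pass, with a median of -1.59 compared to -0.81 over the panel, where 33.3% were higher and 55.9% lower. None of the 6 passed between the 2 Fas lpr genotypes, where their median was -0.07. These directions are relative to the panel: on the deposited signal all 6 were higher after DMXAA than in the WT mouse of B6 and in Fas lpr than in B6 mice, and as a share of the total count all 6, casp1 included, were lower after DMXAA. Between DMXAA-injected and Fas lpr mice, casp1, Il-33 and nlrp3 were higher and 1 was lower on the deposited signal, and all 6 were lower as a share of the total count.

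Of the IL-10 and TGF-beta pathway list, stat3 and tgfb2 are on the panel, and the receptors and SMAD genes are not. stat3 is the transcription factor through which the IL-10 receptor acts. Its log2 difference in relative level was -1.81 after DMXAA against the single B6 WT mouse, and that of tgfb2 was -2.08. The deposited signal of both was higher. stat3 did not pass the threshold between Fas lpr and B6 mice (-0.06) or between the 2 Fas lpr genotypes (-0.20). tgfb2, the gene of another TGF-beta ligand, had only 1 to 19 counts in all mice. Both genes were lower after DMXAA than in Fas lpr mice by relative level (-2.26 for stat3 and -1.71 for tgfb2), as tgfb1 was, and neither passed the threshold on the deposited signal. Over the panel 55.9% of genes were lower in this comparison, and 50.5% after DMXAA against the B6 WT mouse.

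Other immunoregulatory cytokines of the panel are Il-4 and Il13, of type 2 responses, and Il12a, which encodes a subunit shared by IL-12 and IL-35. All 3 had lower relative levels in Fas lpr than in uninjected B6 mice (-1.97, -2.60 and -1.20) and after DMXAA than in the WT mouse of B6 (-5.66, -6.30 and -4.96), the directions of Il-10, and as for Il-10 both directions flip on the deposited signal. Over the panel 40.9% and 50.5% of genes were lower in these comparisons. Il-4 had only 1 to 15 and Il13 only 2 to 14 counts in all mice, so their differences follow the panel median more than their own counts. Il12a had 24 counts in the WT mouse of B6 and 22 and 23 after DMXAA. Of 8 proinflammatory cytokines, 2 were higher by relative level after DMXAA than in the WT mouse of B6, tnfa (6.11) and Il6 (2.28), and 6 were lower, among them Il12b (-0.93) and Il23a (-4.51), where 37.6% of the panel was higher and 50.5% lower. The log2 relative level of Il23a was -1.46 in the WT mouse of B6, whose panel median was 21 counts, and -5.97 after DMXAA. Its low counts were not shown to lie above background, so neither the size nor the direction of its difference is established. Of 5 intracellular negative regulators, socs1 (3.49) and a20 (2.63) were higher in the same comparison and 3 were lower, among them socs3 (-1.08) and IrakM (-2.94), which is near the shares of the panel. Of 12 interferon-stimulated genes, 9 were higher after DMXAA and 1 was lower, with a median log2 difference of 1.73 compared to -0.93 over the panel, where 35 of 93 were higher and 47 lower. On the deposited signal all genes of these lists were higher after DMXAA than without it in B6 WT mice, as were all 93 genes. As a share of the total count 4 of the 12 interferon-stimulated genes were higher and 7 lower, compared to 11 and 74 of the 93. The first 4 of that list on the panel were Ifit1 (7.34), Ifit2 (6.55), cxcl10 (7.28) and Irf7 (2.00). In Fas lpr against uninjected B6 mice 8 of these 12 were higher and 2 lower (median 0.97), compared to 26 and 38 of 93 (median -0.07). In DMXAA-injected against Fas lpr mice, where both sides have replicates, 5 were higher and 6 lower (median -0.57, compared to -0.81 over the panel). Over the panel 33.3% were higher and 55.9% lower, so these counts lie near its shares. On the deposited signal 9 of the 12 were higher and 0 lower, compared to 54 and 5 of the 93. Between the 2 Fas lpr genotypes 0 genes of these lists passed, and the list medians lay between -0.21 and 0.12.

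The genes whose counts ran most like each of the 3 were found by the SD over mice of the log2 ratio of counts, among genes with a mean count of at least 20. Over the 11 mice, adar (SD 0.30), an RNA-editing enzyme, samhd1 (0.38), which breaks down nucleotides, and nlrc5 (0.39), a regulator of MHC class I genes, were most like tgfb1, where the median SD over 82 genes was 1.15. Ifi205 (0.28), an interferon-inducible gene, trex1 (0.34), a DNA exonuclease, and mda5 (0.39), a sensor of RNA, were most like Il1ra (median 1.34). Ifng (0.44), the gene of interferon-γ, Il12a (0.51) and mnda (0.55) were most like Il-10 (median 1.55 over 83 genes). Over the 7 Fas lpr mice alone, the nearest were Ifi47 (0.083), samhd1 (0.090) and pstpip1 (0.10) for tgfb1, and pstpip1 (0.15), Ifi47 (0.15) and samhd1 (0.16) for Il1ra. For Il-10 they were Ifng (0.29), Irf7 (0.42) and tnfa (0.42). The 7 mice are part of the 11, so the rankings share most of their data. These are descriptions over mice that share their libraries between genes.

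Promoters of Il1ra and tgfb1, which limma called higher by relative level after DMXAA than in the single B6 WT mouse, were read from the RefSeq promoter table of GRCm38.p6, which holds Il1rn and Tgfb1. The 250 bases before the start are shown for Tgfb1 (chr7:25686752-25687001, plus strand) and for the most upstream start of Il1rn (chr2:24336610-24336859, plus strand), because of these calls, although both genes were lower as a share of the total count and tgfb1 was not called with both uninjected B6 mice as control. Capitals mark a match to the core of NF-κB sites, taken as GGGA, any 4 bases and CC.
Tgfb1: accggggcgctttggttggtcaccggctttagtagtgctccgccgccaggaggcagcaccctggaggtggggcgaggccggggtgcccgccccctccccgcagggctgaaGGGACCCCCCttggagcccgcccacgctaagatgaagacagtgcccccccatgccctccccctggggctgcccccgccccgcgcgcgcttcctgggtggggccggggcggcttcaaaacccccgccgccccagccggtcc
Il1rn: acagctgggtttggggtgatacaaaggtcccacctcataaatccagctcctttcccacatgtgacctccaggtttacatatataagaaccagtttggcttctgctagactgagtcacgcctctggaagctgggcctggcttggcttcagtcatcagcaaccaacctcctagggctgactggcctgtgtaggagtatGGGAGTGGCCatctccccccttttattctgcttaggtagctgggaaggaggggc
Both strands were searched. The match lies 140 to 131 bases before the start in Tgfb1 and 54 to 45 bases before it in Il1rn, and 17.6% of 32851 promoters of the same length hold one. TTCNNNGAA, a STAT site held by 7.02% of promoters, and the core of the interferon-stimulated response element, taken as GAAA, any 2 bases and GAAA and held by 2.98%, had 0 matches in these windows. The windows before 2 further starts of Il1rn had 0 matches to any of the 3 motifs.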

How the data were processed

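RNA of 11 spleens (50 ng each) was measured with the nCounter system. The deposited signal is linear and was normalized by the authors to housekeeping genes, which the sources used here do not name. All 1023 values were whole multiples of a factor per mouse (tolerance 0.0001), and these whole numbers are the counts used here. They are not raw counts as deposited, so the planned count models with TMM and RLE scaling were not fitted, and limma's voom on these counts is an alternative with the same limit. Whether background was subtracted is not given in the sources used here. Relative levels for tests were log2(count + 1) minus the mouse's median of it over 93 genes, tested two-sided with limma 3.58.1 (R 4.3.3), Benjamini-Hochberg adjustment over 93 genes and a threshold of 0.05. The Fas lpr genotypes were compared within 7 mice, the other comparisons in a fit of 11 mice in 5 groups. The limma step was tested on simulated data only for the Fas lpr genotypes and for DMXAA-injected against Fas lpr mice. The simulation changed few genes, all of higher counts than Il-10. It did not cover comparisons with a single control mouse, changes at low counts, or a panel in which most genes change. Levels in each mouse are plain ratios to the panel median. Exact permutation tests were enumerated over all divisions of the mice in Python 3.11.15, and the smaller one-sided p was doubled. SciPy 1.17.1 gave the Mann-Whitney test and the exact intervals, and figures were drawn with Matplotlib 3.10.9. The RefSeq gene table (GRCm38.p6) gave a symbol for 90 of the 93 panel names. It gave no single one for cox2, IkBa and viperin, so that IkBa and viperin are in no list. The named genes are the 3 genes, the 3 most alike to each, all panel genes of the IL-1 and of the IL-10 and TGF-beta lists, and the first 4 panel genes of longer lists. viperin was named beside them after its values were seen. The genes and lists were chosen with earlier results of these data known. Every pair of mice in a group differed by more than sampling noise (chi-square 2.91 to 27.1 times its degrees of freedom), as repeat preparations of 1 animal could too. Each counts as 1 sample because the labels number the mice separately, which is the only sign that they are separate animals. Alternatives were the deposited signal, the share of the total count, pseudocounts of 0.5 and 10, a mean count of at least 20, a robust trend, other control groups, the mouse number as a block, the exact Mann-Whitney test, leaving out each mouse, and, chosen after seeing the data, limma's voom.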

Additional observations from a re-analysis of the deposited data

Results flagged for a closer look

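tgfb1 differed more between the lone B6 mice of the 2 cGAS genotypes than between the Fas lpr genotypes. On the Fas lpr background the log2 difference in relative level, cGAS KO minus WT, was -0.05, whereas tgfb1 was 8.19 times the panel median in the lone B6 cGAS KO mouse and 3.19 times in the lone B6 WT mouse. The difference of these differences was -1.42. It rests on 1 mouse per B6 genotype, with total counts of 12386 and 3612, and the part of these depths in it was not tested. The value was -3.73 on the deposited signal, -0.40 as a share of the total count and -0.84 with voom. With no spread between mice on the B6 side, it is a value without a replicate check. Among the 4 cGAS KO/Fas lpr mice, a gap test for single distant mice (Dixon) found 0 in 9 sets of levels and ratios.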

How the results depend on the processing

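Over all results and alternatives, 343 of 379 values kept their direction and their side of the threshold, or stayed within 1.5 times for counts of genes. For the ratios and the Mann-Whitney test no p could pass 0.05. These values kept their side by design, and the tally shows no stability for them. Between the Fas lpr genotypes no alternative called a gene, and small differences changed sign. tgfb1 was 0.032 on the deposited signal and 0.090 with a mean count of at least 20, where Il-10 drops out. Il1ra was -0.012 as a share of the total count and -0.0002 with a pseudocount of 10. With the mouse number as a replicate block Il1ra was -0.026 and 0 genes were called. The deviations of mice with the same number had correlations over 93 genes of -0.21, 0.25 and 0.08. From so few pairs these values cannot decide whether the numbers pair the mice. Leaving out each mouse gave -0.049 to 0.72 for Il-10 and -0.089 to 0.078 for Il1ra. The log2 ratios were then -0.10 to 0.88 for Il-10 to Il1ra, -0.058 to 0.13 for Il1ra to tgfb1 and 0.0004 to 0.82 for Il-10 to tgfb1.

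On the deposited signal Il-10 reversed for DMXAA against B6 WT (3.13) and for Fas lpr against B6 mice (3.33), tgfb1 reversed for DMXAA against Fas lpr mice (1.33), where Il-10 lost its call (-0.67), and the cGAS difference between backgrounds reversed for Il-10 (-0.56) and Il1ra (-1.34). As a share of the total count, tgfb1 (-1.70) and Il1ra (-0.95) reversed for DMXAA against B6 WT, and Il1ra reversed against Fas lpr mice (-0.47) and lost its call between Fas lpr and B6 mice (0.32). The cGAS difference between backgrounds, given as a value only, was then 2.26 for Il-10, 1.59 for Il1ra and -0.40 for tgfb1, with 47 genes called in place of 31 if the lone B6 mice are assumed to vary like the others. These shifts follow from the scales, whose panel medians differ. For DMXAA against Fas lpr mice voom gave 2.04 for Il1ra, -0.62 for tgfb1 and -2.62 for Il-10. For the cGAS difference between backgrounds it gave -0.84 for tgfb1, with 12 calls, and between Fas lpr and B6 mice voom lost Il-10 (-1.03) and Il1ra (0.69). There Il1ra also lost its call with a pseudocount of 10 (0.34) and with WT mice only (0.28), and tgfb1 lost its call after DMXAA with both B6 mice as control (0.17). The cause was not tested. Leaving out each mouse between Fas lpr and B6 mice gave -1.66 to -0.75 for Il-10, 0.28 to 0.85 for Il1ra, and log2 ratios of -1.82 to 0.13 for Il1ra to tgfb1 and -3.74 to -1.43 for Il-10 to tgfb1. With a pseudocount of 10 on both counts the ratio of Il1ra to tgfb1 was -1.36. Where this left a group with 1 mouse, that mouse was assumed to vary like the others. The planned count models with TMM and RLE scaling were not run, because the deposited values are normalized, a limit that voom shares. Of the 3 genes, Il-10 had the fewest counts, at 7 to 37 in all mice.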
